A study of Mus musculus with 2 samples.

Results

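Insulin-like growth factors (IGFs) and the proteins that bind them were compared between mature hepatocytes (MHs) and Sox9+EpCAM- cells, the biphenotypic hepatocytes that carry hepatocyte and bile duct features. The group holds 10 genes, the ligands Igf1 and Igf2, the acid labile subunit Igfals and the binding proteins Igfbp1 to Igfbp7. They were taken by name from the array and are 10 of its 30153 genes, read by 16 probes. Igf1 has 5 probes, Igfbp2 and Igfbp3 have 2 each, and each of the other genes has 1. All 16 probes passed the outlier filter.

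Both groups came from Sox9-EGFP mice, in which a Sox9 reporter makes green fluorescent protein. MHs were taken from healthy liver after collagenase perfusion and purified by low-speed and Percoll centrifugation without sorting. Sox9+EpCAM- cells were sorted by GFP and the lack of EpCAM from liver chronically injured by a DDC diet, which damages bile ducts. Age and the number of animals behind each array were not given in the sources used here. A feeding time of some weeks is stated for the same sorted population where it was isolated for PCR, but not for the arrays themselves. RNA of each group was labelled with Cy3 and read on 1 Agilent array. Both arrays lay on the same slide and were scanned together. A single array stands for each group, which limits the precision, and neither an SD nor a test can be given. A signal is called detected here where the scanner software marks it well above background.

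IGF1 and IGF2 are small secreted hormones related to insulin that signal for growth and survival through the type 1 IGF receptor. In adults the liver is the main source of circulating IGF1, and growth hormone drives its transcription in hepatocytes. Most circulating IGF1 travels in a complex with IGFBP3 or IGFBP5 and the acid labile subunit, while IGFBP1, IGFBP2 and IGFBP4 carry it in smaller complexes.

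The probes decide which part of a transcript was measured, so the central 30 bases of some of the probes on which the results turn are given here in transcript sense. Coordinates are those of the array design on mm9. For Igf1, on the + strand of chromosome 10, the 5 probes are listed from upstream to downstream, and their central bases start at 87378471, 87393576, 87393596, 87395939 and 87399596. Capitals mark bases that a second probe of the gene also covers.
Igf1 probe 1: gccaccaagaccttccctccccttcttaaa
Igf1 probe 2: taataAGTCCAATAACATTACAAAGATGGG
Igf1 probe 3: CAAAGATGGGCATTTCCCCCAATGAaatat
Igf1 probe 4: ataagaggtcagctgaccatccacctgctt
Igf1 probe 5: gaagtggttattcaattcatttatggcaga
Probes 2 and 3 overlap by 40 bases and are nearly the same measurement. Probe 1 is annotated to NM_184052, which is not among the Igf1 transcripts of the RefSeq table of GRCm38.p6, while the accession of the other 4 probes is. The probe of Igfals (chr17:25018266-25018295, + strand) and the 2 probes of Igfbp3 (chr11:7106609-7106638 and chr11:7107964-7107993, - strand) follow.
Igfals: atctgcttctgtccaacaaccaactgacaa
Igfbp3 probe 1: cacagatttcttttcatcttcctatctaaa
Igfbp3 probe 2: tttggtttctgaattagagatgtccctagt
Igfbp3 probe 1 is annotated to the RefSeq transcript and probe 2 to an Ensembl transcript. No run of 20 bases in these 16 probes recurs in the probe of another gene.

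Of the 10 genes, 6 were detected in both groups. Igf2, Igfbp3 and Igfbp6 were detected in Sox9+EpCAM- cells but not in MHs, and 1 gene, Igfbp5, in neither. Over all 30153 genes, 3610 were detected in Sox9+EpCAM- cells only and 572 in MHs only, so this lean is no result about the group. Among the 6, Igf1, Igfals, Igfbp2 and Igfbp4 were lower and Igfbp1 and Igfbp7 were higher in Sox9+EpCAM- cells. By size alone, Igfals was at least 4-fold lower and Igfbp3 at least 4-fold higher, 1 of 9 genes in each direction (11.1%). Of the 23417 genes detected in at least 1 group, 5.59% were at least 4-fold higher and 5.57% at least 4-fold lower. With 9 genes, a share of 5.59% or 5.57% corresponds to less than 1 gene, so 1 gene in each direction is no result about the group. The median log2 difference, Sox9+EpCAM- minus MH, was -1.14 over the 6 genes and -0.20 over the 19235 genes detected in both groups. With the 3 bounds included it was -0.04, against -0.17 over all genes. Differences were taken after scaling each array to its 75th percentile, 741 for MHs and 1110 for Sox9+EpCAM- cells. Scaling to Gapdh moved the median of all genes by 0.27 and changed the share of higher genes among those past 4-fold from 50.1% to 62.1%, while the deposited table moved them the other way, by -0.18 and to 42%. Under every scaling tried the 4 lower and 2 higher genes named above kept their direction.

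**Figure D1:**
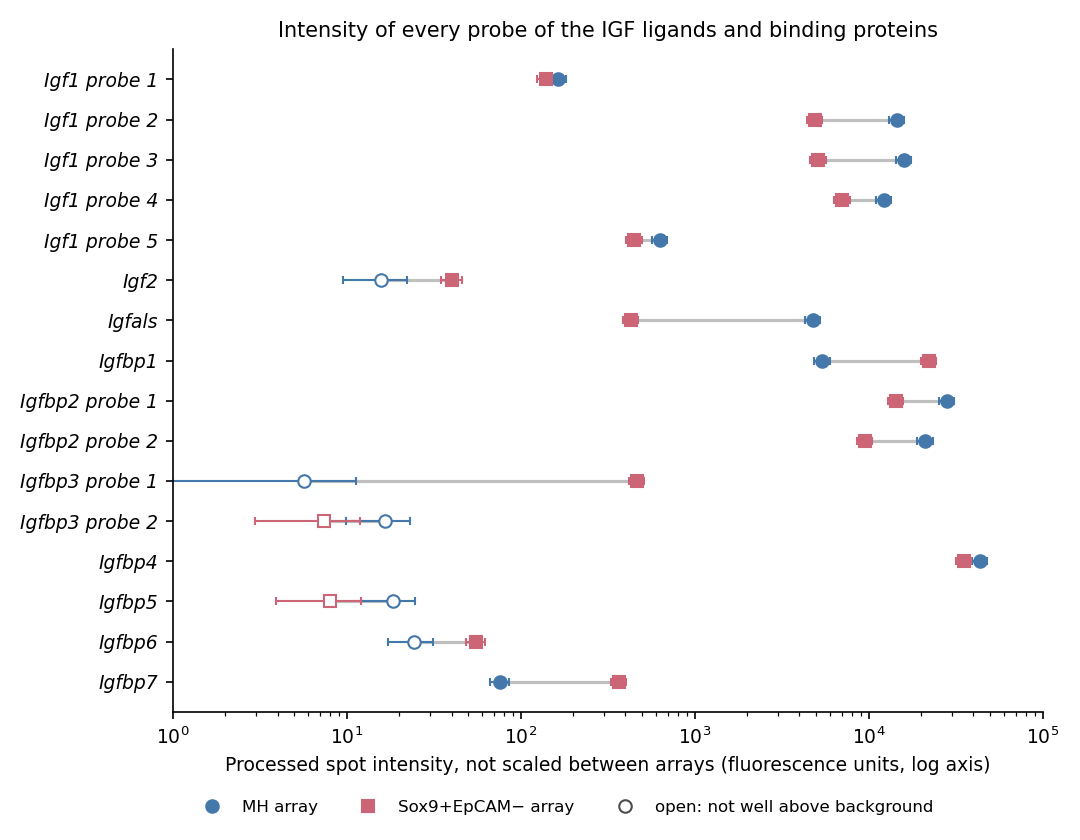
Processed intensity of each of the 16 probes in MHs (circles) and Sox9+EpCAM- cells (squares), on a log axis and before scaling between arrays. Error bars are the error that the scanner software gives for the spot (that of Igfbp3 probe 1 in MHs runs past the axis), open symbols are not well above background, and probes of a gene are numbered by position. Igfals falls from 4800 to 428 and Igfbp1 rises from 5420 to 22300. Levels of different probes cannot be compared with each other.

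Igf1, the hormone itself, was lower in Sox9+EpCAM- cells by all 5 of its probes, but not by the same amount. Probe 1 read 164 in MHs and 139 in Sox9+EpCAM- cells, in units of processed intensity. For the overlapping probes 2 and 3 these values were 14500 and 4910, and 16000 and 5140. Each of the 3 was lower in Sox9+EpCAM- cells already before scaling. Probe 4 read 12300 and 7060, and probe 5 read 631 and 450. After scaling, the log2 differences from probe 1 to probe 5 were -0.82, -2.15, -2.22, -1.38 and -1.07. Thus the overlapping pair was 4.42-fold and 4.66-fold lower, past the 4-fold size, while the other 3 probes were 1.77-fold to 2.61-fold lower. The scanner software gave an error of 0.20 to 0.22 on the log2 scale for each difference, so the pair and the other probes lay apart by more than this error, which covers the spot and not the animals. Probe 4 stands for Igf1 because its mean log2 intensity over both arrays was the highest, narrowly ahead of probe 3, which took its place with normexp correction and gave -2.15. By probe 4, 10.4% of genes measured on both arrays had a lower difference than Igf1. Which transcripts each probe reads was not tested.

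**Figure D2:**
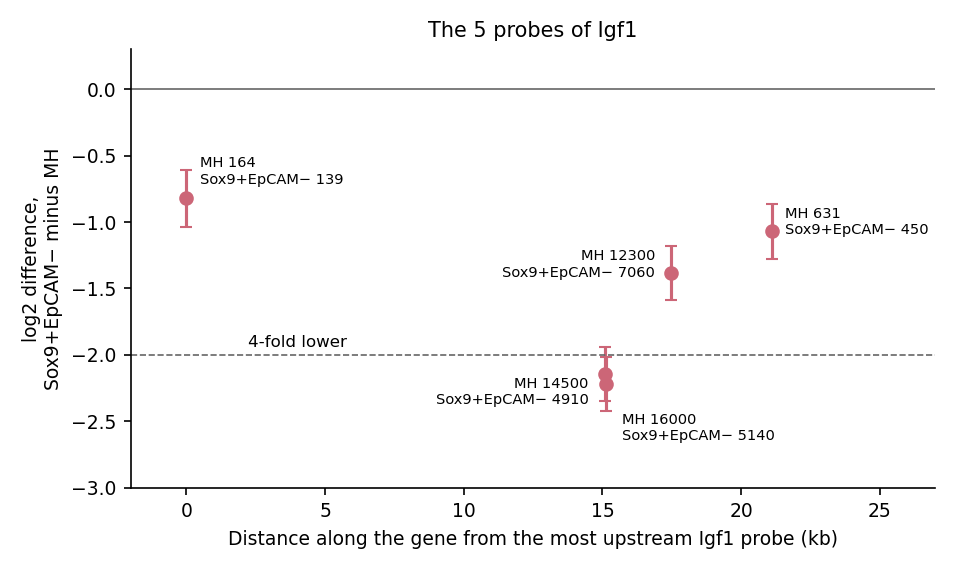
Log2 difference, Sox9+EpCAM- minus MH, of the 5 Igf1 probes against their distance in kb from the most upstream probe; error bars are the error of the scanner software, and the dashed line marks 4-fold lower. The overlapping probes near 15.1 kb lie below the line at -2.15 and -2.22, and the other 3 lie between -1.38 and -0.82.

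Igf2, the fetal growth factor, which is silenced in mouse liver after birth, was close to background on both arrays. Its probe read 15.8 in MHs, which was not well above background, and 40.4 in Sox9+EpCAM- cells. The dimmest detected signal was 27.8 in MHs and 18.4 in Sox9+EpCAM- cells. Against the floor of MHs no fold can be given for Igf2 after scaling. On chromosome 7 Igf2 lies beside the imprinted gene H19, with no protein-coding gene between them in the RefSeq table of GRCm38.p6.

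Igfals showed the largest decrease among the 10 genes. It encodes the acid labile subunit, a hepatocyte protein under growth hormone control that extends the life of IGF1 in blood. Its single probe read 4800 in MHs and 428 in Sox9+EpCAM- cells. This is 16.8-fold lower, a log2 difference of -4.07 with a software error of 0.20. Of all genes measured on both arrays, 0.53% had a lower difference. Since scaling cancels between genes on the same array, Igfals can be set against Igf1 directly, and it fell by 2.69 more than probe 4 of Igf1 on the log2 scale (error 0.29). Across the 5 Igf1 probes the difference of Igfals minus Igf1 ran from -3.25 to -1.85.

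Igfbp1 moved the other way. It encodes a binding protein made by hepatocytes, whose transcription insulin represses and fasting and cell stress raise. Its probe rose from 5420 in MHs to 22300 in Sox9+EpCAM- cells, 2.75-fold after scaling, a log2 difference of 1.46 with an error of 0.20. Of all genes measured on both arrays, 93.0% had a lower difference. Relative to Igfals the ratio of the 2 genes changed 46.1-fold between the arrays, and relative to probe 4 of Igf1 by 7.17-fold. Across the 5 Igf1 probes the latter ran from 4.85-fold to 12.8-fold.

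Igfbp2 and Igfbp4, also products of hepatocytes, were lower. The brighter probe of Igfbp2 read 28100 in MHs and 14300 in Sox9+EpCAM- cells, 2.94-fold lower. Its other probe had 21200 and 9520, 3.34-fold lower. Both probes of Igfbp2 thus fell, with log2 differences of -1.56 and -1.74 that lie within the error of 0.20. Igfbp4, which mainly inhibits IGF action, had 43800 and 35200, 1.86-fold lower, and 20.1% of genes had a lower difference. Igfbp1 rose over Igfbp2 by 3.02 and over Igfbp4 by 2.36 on the log2 scale (error 0.29 each), so the 3 binding protein genes did not move together.

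Igfbp3 encodes the main carrier of IGF1 in blood and is made in liver chiefly by cells other than hepatocytes. Probe 1 read 5.66 in MHs, where it was not detected, and 463 in Sox9+EpCAM- cells. Against the floor of MHs this is at least 11.1-fold higher, a log2 difference of at least 3.47, and 2.16 with normexp correction. Probe 2 read 16.5 and 7.43 and was detected in neither group, so the increase rests on 1 probe. Igfbp3 and Igfbp1 are direct neighbours on chromosome 11, with no gene between them in the RefSeq table. Both were higher in Sox9+EpCAM- cells.

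Igfbp5, the other partner of the acid labile subunit, read 18.4 and 8.01 and was detected in neither group, so it has no difference. It is the direct neighbour of Igfbp2 on chromosome 1. Igfbp6, which prefers IGF2, read 24.2 in MHs, undetected, and 55.3 in Sox9+EpCAM- cells, at least 1.33-fold higher, but with normexp background correction its log2 difference was -0.22. Igfbp7, a related protein that binds IGFs weakly and is typical of vessels and stroma, rose from 76.3 to 366, 3.20-fold after scaling, a log2 difference of 1.68 with an error of 0.23. Its probe holds 23.3% G and C, the lowest of the 16 probes. With normexp correction it was 1.07. Igfbp3 and Igfbp7 both rose in Sox9+EpCAM- cells, and in MHs Igfbp3 was below detection and Igfbp7 read 76.3.

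**Figure D3:**
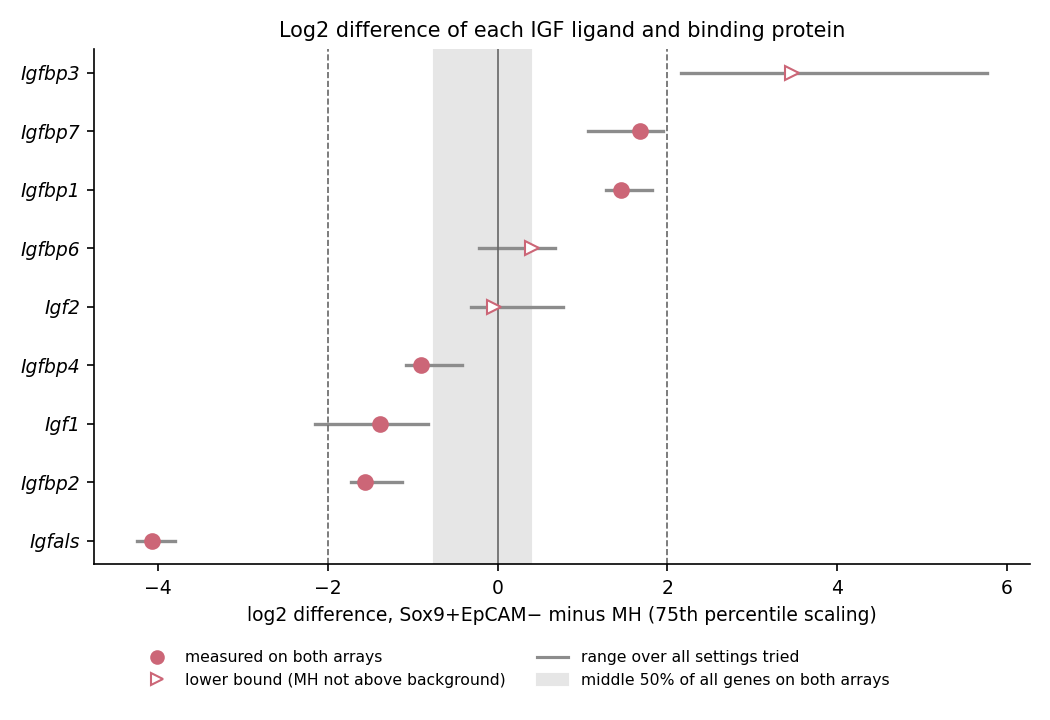
Log2 difference, Sox9+EpCAM- minus MH, of the 9 genes with a value; filled circles were measured on both arrays and open triangles are lower bounds. Grey lines span all settings tried, including plain differences without the bound, the grey band holds the middle 50% of genes measured on both arrays (-0.74 to 0.39) and dashed lines mark 4-fold. Igfals lies at -4.07 and Igfbp3 at a bound of 3.47, with Igf1, Igfbp2 and Igfbp4 to the left of 0 and Igfbp1 and Igfbp7 to the right.

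The promoters of Igfals and Igfbp1 are shown because these genes moved in opposite directions and theirs were the only windows of the group that held the letters searched. Windows of 300 bases around each start site, from RefSeq on GRCm38.p6, were searched on both strands for TTCNNNGAA, the palindrome that STAT5 binds downstream of growth hormone, for TGTTTAC, a forkhead core, and for CAAAACA, the letters of the insulin response element of Igfbp1. The 10 genes have 16 windows. TTCNNNGAA was found in 2 of the 16 windows, both of Igfals, against 8.30% of all 32851 windows. TGTTTAC was found in 1 window, also of Igfals, against 3.65%. CAAAACA was found in 1 of the 16 windows, near the share of 6.28% over all windows. That window is of Igfbp1, whose own element gave the letters, so this match follows from their choice. Capitals mark the matches. The 2 Igfals windows with matches are at chr17:24877594-24877893 and chr17:24877981-24878280, + strand, and the Igfbp1 window is at chr11:7197537-7197836, + strand. A further window of Igfals held no match and is not shown.
Igfals window 1: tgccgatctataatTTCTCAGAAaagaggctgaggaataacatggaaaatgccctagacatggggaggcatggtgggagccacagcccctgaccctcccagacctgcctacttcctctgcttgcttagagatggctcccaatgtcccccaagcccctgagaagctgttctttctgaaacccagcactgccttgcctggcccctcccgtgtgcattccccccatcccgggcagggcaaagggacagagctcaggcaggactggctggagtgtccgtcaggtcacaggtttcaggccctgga
Igfals window 2: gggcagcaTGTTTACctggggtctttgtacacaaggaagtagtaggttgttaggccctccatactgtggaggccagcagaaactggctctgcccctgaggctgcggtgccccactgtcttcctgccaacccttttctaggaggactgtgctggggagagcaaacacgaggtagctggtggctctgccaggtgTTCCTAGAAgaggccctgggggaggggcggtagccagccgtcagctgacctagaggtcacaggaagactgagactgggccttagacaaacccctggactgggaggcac
Igfbp1: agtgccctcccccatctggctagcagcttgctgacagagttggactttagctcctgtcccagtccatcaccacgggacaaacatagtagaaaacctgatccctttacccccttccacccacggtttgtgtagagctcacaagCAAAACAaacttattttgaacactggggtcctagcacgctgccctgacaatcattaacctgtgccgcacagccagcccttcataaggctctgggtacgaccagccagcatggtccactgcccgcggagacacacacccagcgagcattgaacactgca
In Igfals the TTCNNNGAA matches begin 236 and 58 bases before the start sites of their windows. TGTTTAC begins 242 bases before the start of the second window, and CAAAACA 108 bases before that of Igfbp1. The matches describe the letters only, and binding of a factor was not measured.

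Beyond the 10 genes, 43 genes of the IGF axis were read in 7 lists by role, and 38 of them were detected in at least 1 group. Of these 38, 7 were at least 4-fold higher and 3 at least 4-fold lower, against the 5.59% and 5.57% of all genes, and their median log2 difference was -0.18, against -0.17 over all genes. Among the 4 receptors, Igf2r, which takes up IGF2 and lysosomal enzymes, rose from 40.3 to 341, 5.65-fold. Igf1r, the signalling receptor, had 125 and 48.8, 3.84-fold lower. Insr, the insulin receptor, was 1.43-fold lower.
Among 6 genes of growth hormone input, 1 passed 4-fold. Ghr, the growth hormone receptor, was lower by both of its probes, from 3590 to 1070 (5.03-fold) and from 2490 to 602 (6.20-fold). Stat5b, Jak2 and Socs2 were 1.84-fold, 1.74-fold and 1.27-fold lower by their brightest probes, and Stat5a and Cish were 1.06-fold and 1.42-fold higher. Thus the receptor gene moved in the direction of Igf1 and Igfals, while the other 5 genes stayed within 2-fold by these probes. The other probe of Stat5b read 106 and 63.7, 2.49-fold lower, past 2-fold in the direction of Ghr.
Among 12 genes of intracellular signalling, 2 were at least 4-fold higher and 1 lower. Irs2, an adaptor of the insulin and IGF receptors, rose from 583 to 6260, 7.17-fold. Grb14, which inhibits the insulin receptor, was not detected in MHs (7.07) and read 184 in Sox9+EpCAM- cells, at least 4.42-fold higher. Pik3cb, a catalytic subunit of phosphatidylinositol kinase, fell from 126 to 42.6, 4.43-fold. The 2 probes of Irs1 went opposite ways, with log2 differences of -1.94 and 1.69.

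In the other lists, Igf2bp2, which binds the mRNA of Igf2, was at least 17.6-fold higher by its main probe and at least 38.9-fold by the other, and MHs were below detection on both. Igf2bp3 was 2.14-fold lower and Igf2bp1 was detected in neither group. None of the 6 measured genes of IGFBP proteases and their inhibitors passed 4-fold. Among those detected in both groups, Stc2, which blocks the protease of IGFBP4, was the most increased with 3.12-fold. Stc1 and Pappa2 were detected in Sox9+EpCAM- cells only, so their differences are bounds. Among the IGFBP-related proteins, Ctgf rose from 47.3 to 10400, 147-fold, and Cyr61 from 429 to 30800, 47.9-fold. Both share a domain with the binding proteins and act on matrix and adhesion. Esm1, an endothelial proteoglycan, read 203 in MHs and 18.5, below detection, in Sox9+EpCAM- cells, at least 16.4-fold lower. H19 was at least 60.8-fold higher by its main probe, which read 7.4 in MHs, below detection, and 2530 in Sox9+EpCAM- cells. The other probe of H19 had 57.8 and 182, 2.10-fold higher, so the size of its increase depends on the probe. Ins2, on the other side of Igf2, was 1.11-fold higher.

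**Figure D4:**
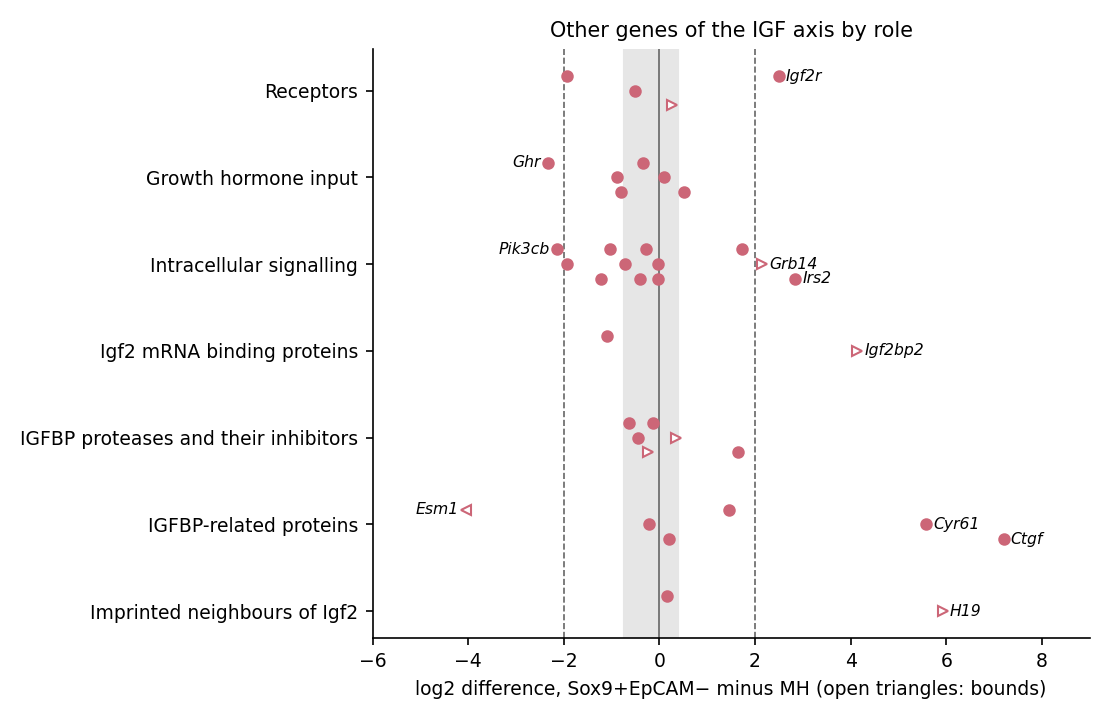
Log2 difference, Sox9+EpCAM- minus MH, of the 38 other IGF axis genes with a value, in 7 lists by role; circles were measured on both arrays, open triangles are bounds that point toward the true value, and genes past 4-fold (dashed lines) are named. The grey band holds the middle 50% of genes measured on both arrays, and height within a list only separates the points. Ctgf, H19 and Cyr61 lie farthest to the right, at 147-fold, at least 60.8-fold and 47.9-fold, and Esm1 farthest to the left, at -4.04 or lower.

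Markers of cell types were read beside these genes, and the lists did not all move in the same direction. All 10 hepatocyte markers were lower, with a median of -1.07 and a range from -8.58 for Cyp3a11 to -0.23 for Hnf4a, and their summed intensity before scaling was 969000 and 622000. Igf1 by all of its probes, Igfals, Igfbp2 and Igfbp4 lay within this range, Igfals (-4.07) and the overlapping Igf1 probes (-2.15 and -2.22) farther from the median than Igfbp2 and Igfbp4. Igfbp1 (1.46) lay outside it. The upper end of this wide range is near the median of all genes detected in both groups (-0.20). Lying within it therefore does not tie a gene to the hepatocyte markers. Of 10 portal fibroblast markers, 8 were at least 4-fold higher, and the exceptions were Thy1 (0.76) and Entpd2 (-0.18). The summed intensity of the list was 1320 in MHs and 50300 in Sox9+EpCAM- cells, or 1150 and 28000 without Col3a1, the brightest. Of 8 cholangiocyte markers, 6 were higher and 2 lower, with a median of 0.67. Cftr was the lowest, from 69.6 to 52.1 before scaling, and Spp1 the highest, at 6.93. Their sums were 1760 and 54400 with Spp1, and 1500 and 7440 without it. Krt19 had 0.42 and Krt7 -0.23. Of the 8, 2 were at least 4-fold higher, Spp1 and Epcam, whose protein the sort excluded and whose transcript rose from 139 to 2770. Sox9 itself was detected in Sox9+EpCAM- cells only (8.52 and 60.2). The 7 stellate cell markers with a value had a median of -0.65, with sums over the list of 3970 and 4100, or 970 and 1240 without Ecm1, the brightest, and Pdgfrb, Hand2 and Hhip were detected in neither group. Of 9 endothelial markers with a value, 8 were lower, 5 of them at least 4-fold, with a median of -3.02 and sums of 7220 and 2750. Of 11 macrophage markers 10 were lower, 8 of them at least 4-fold, with a median of -2.78. The exception, Cd68, rose from 52.9 to 1140, 14.4-fold. The macrophage sums were 26300 and 15800, or 14100 and 2140 without Csf1r, the brightest. Such sums are unscaled and weighted toward the brightest probes. By their medians the endothelial and macrophage lists moved opposite to Igfbp3 and Igfbp7, with Cd68 and Flt1 (0.56) as exceptions. The stellate cell median was also negative, with 3 markers higher and 4 lower. The portal fibroblast and cholangiocyte medians moved the same way as Igfbp3 and Igfbp7. In its flow cytometry during DDC feeding the paper took cells without CD31 and CD45 before reading GFP and EpCAM. The paper uses CD31 to mark sinusoidal endothelium, and whether the arrays used this step is not stated. The part of other cells in these values was not tested, and in bulk RNA fewer cells of a type and less RNA per cell cannot be told apart.
The labels give both samples as male. Xist, expressed from the inactive X chromosome of females, read 1940 in MHs and was undetected in Sox9+EpCAM- cells (16.1). All 4 Y-linked genes read were detected in Sox9+EpCAM- cells and not in MHs, against the label of the MH sample. Sex, diet and isolation therefore cannot be told apart as sources of any difference given here, those of the growth hormone dependent genes Igf1 and Igfals included.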

How the data were processed

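Total RNA of MHs and of Sox9+EpCAM- cells was extracted with a column kit and labelled with Cy3 by a service provider, and 1 array per group was scanned. Per the file headers, the authors' intensity values were made with Feature Extraction 10.7.3.1, which subtracted background and removed trends across the slide, with no normalization between arrays. A second deposited table holds ratio values, in which each processed intensity was divided by its array's median (96.5 and 164). Columns of sample values left unused numbered 0.

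Intensities of 43020 spots per array were scaled to the 75th percentile and taken to log2, outlier spots were dropped and spots of a probe averaged, giving 39390 probes. The probe with the highest mean log2 value stood for its gene. Where a probe was not well above background on 1 array, the difference is a bound against the higher of its own signal there and the lowest signal well above background. Genes past 4-fold were counted by size, without a test. The software's error of a spot was carried to the difference in quadrature. Probes printed at least 8 times and above background had a median SD between spots of 0.08 log2 (MH, 266 probes) and 0.079 (Sox9+EpCAM-, 301 probes). No spot was saturated.

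All 10 gene names are current symbols in RefSeq, and of the 43 other IGF axis genes 38 are. Every gene of the group was named with every probe, and of the axis lists the genes past 4-fold, with others of their list. The genes and lists were chosen with earlier results of these data known. Protein motifs were not analysed here, and the other 8 probe sequences are not reported here. Alternatives were normexp correction (limma 3.58.1, R 4.3.3, offset 50), scaling to Gapdh or to the median, quantile normalization, the median of all probes, keeping outliers, the deposited table, plain differences in place of bounds, genes detected in both groups alone, and sizes of 2-fold and 10-fold. The probe with the smallest difference was added after seeing the data. Python 3.11.15, pandas 2.3.3 and numpy 2.4.6 were used, and the procedure was tested on simulated data.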

Additional observations from a re-analysis of the deposited data

How the results depend on the processing

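Of 121 values under alternatives, 109 stayed within 1.5-fold of the reported value, 12 moved further and 0 changed sign among genes past 4-fold. Normexp correction gave log2 differences of -2.15 for Igf1, where probe 3 became the brightest, 2.16 for Igfbp3, -0.22 for Igfbp6 and 1.07 for Igfbp7, and 2 genes at least 4-fold lower. Without the bound, Igf2 had 0.77, Igfbp3 5.77 and the median over the genes was 0.61, which use MH signals not well above background. With only genes above background on both arrays, 0 genes were at least 4-fold higher and the median was -1.14, since the genes with bounds drop out. A size of 2-fold gave 3 genes higher and 3 lower. Scaling to Gapdh shifted all genes by 0.27 and the deposited table by -0.18. Igf2 and Igfbp6 changed sign between settings and are bounds. Over all genes, normexp left 612 higher and 660 lower, and genes detected in both groups alone 758 and 914, fewer than the 1309 and 1304 reported. The smallest-difference probe, chosen after seeing the data, moved no value by over 1.5-fold. Except where the construction shows it, the cause was not tested. Signal over background limits Igf2, Igfbp3, Igfbp5 and Igfbp6. The slide as a block could not be fitted. No paired analysis was possible because neither group holds a second array.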
